A study of Mus musculus with 16 samples.

Results

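The interaction of berberine with a vector labelled AKR1B10 knockdown was measured across the genes of mouse liver, in 16 libraries of poly(A) RNA. It is a difference of differences: the log2 effect of berberine in the knockdown-labelled arm minus its log2 effect in the negative control arm. Of the 55401 genes in the table, the test covered the 10846 that reached 1 FPKM (fragments per kilobase of transcript, scaled to library size) in 4 or more of the 16 libraries. The 4 groups held 4 libraries each, named AAV_A_B (AKR1B10 knockdown with BBR), AAV_A (AKR1B10 knockdown), AAV_NC_B (negative control with BBR) and AAV_NC (negative control). BBR was read as berberine from the title of the series, and AAV stands in the library names of all 4 groups, so by name the control arm received a vector too. Strain, sex, age, diet, the dose of berberine, the vector's promoter and its target sequence are not given in the sources used here. Replicates are numbered mice in the titles, and p-values measure the spread between these libraries. Libraries held between 46273129 and 66235443 counts.

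Berberine is a plant alkaloid known for lowering blood lipids and glucose and for activating the AMP-activated kinase of hepatocytes. AKR1B10 encodes an NADPH-dependent enzyme of the aldo-keto reductase superfamily that acts on aldehydes and retinal. In human breast cancer cells it is known to bind acetyl-CoA carboxylase, the enzyme that commits acetyl-CoA to fatty acid synthesis. In a design of this kind, an interaction of 0 means that the log2 effect of berberine was equal in the 2 arms. A value above 0 means that berberine-treated libraries stood higher against their untreated counterparts in the knockdown-labelled arm than in the control arm, whatever the sign within each arm.

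Of 37 gene lists described, heat shock genes had the most members above 0 at an unadjusted p under 0.05, and acute phase genes the most below. Promoters of 2 heat shock genes, of an acute phase gene and of a chemokine of the inflammatory list are therefore shown, each holding a motif known for such genes. They are RefSeq promoters of GRCm38.p6, 250 bases before to 50 after the start, written 5′ to 3′. Capitals mark the heat shock element (TTC, any 2 bases, GAA, any 2 bases, TTC, on either strand, matches may overlap) in the promoters of Chordc1 and Hsph1, and a kB site (GGG, any 2 bases, TTTCC, on either strand) in those of Cxcl1, a chemokine induced by NF-kB, and Serpina3n, an acute phase serpin.
Chordc1, chr9:18292017-18292316, plus strand: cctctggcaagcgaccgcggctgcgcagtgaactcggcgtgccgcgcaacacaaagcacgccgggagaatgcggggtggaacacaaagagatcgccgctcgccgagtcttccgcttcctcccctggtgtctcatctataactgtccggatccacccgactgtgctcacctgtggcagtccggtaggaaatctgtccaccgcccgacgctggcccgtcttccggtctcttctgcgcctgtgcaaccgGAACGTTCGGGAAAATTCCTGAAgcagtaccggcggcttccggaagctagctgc
Hsph1, chr5:149636266-149636565, minus strand: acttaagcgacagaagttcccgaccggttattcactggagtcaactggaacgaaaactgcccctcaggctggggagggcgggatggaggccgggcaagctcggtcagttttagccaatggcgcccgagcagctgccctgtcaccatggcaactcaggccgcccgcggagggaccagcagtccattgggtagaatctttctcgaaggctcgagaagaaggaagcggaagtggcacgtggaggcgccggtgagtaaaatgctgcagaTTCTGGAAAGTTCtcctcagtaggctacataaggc
Cxcl1, chr5:90890995-90891294, plus strand: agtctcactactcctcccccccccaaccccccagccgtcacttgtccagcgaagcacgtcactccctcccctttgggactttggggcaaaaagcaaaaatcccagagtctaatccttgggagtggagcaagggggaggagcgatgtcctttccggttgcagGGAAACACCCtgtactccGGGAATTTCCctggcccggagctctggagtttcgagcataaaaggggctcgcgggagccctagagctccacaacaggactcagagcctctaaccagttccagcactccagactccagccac
Serpina3n, chr12:104406458-104406757, plus strand: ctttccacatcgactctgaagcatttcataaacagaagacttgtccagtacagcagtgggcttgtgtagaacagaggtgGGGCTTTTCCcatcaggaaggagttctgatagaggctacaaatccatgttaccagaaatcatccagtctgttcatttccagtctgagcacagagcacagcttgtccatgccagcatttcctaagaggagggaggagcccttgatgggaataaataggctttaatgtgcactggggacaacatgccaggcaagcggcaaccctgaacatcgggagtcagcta

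The heat shock element was found in 4 of the 18 tested heat shock genes with a promoter entry (22.2%), against 44 of 7558 tested genes with an entry (0.582%). Of these 4, Hspd1 and Hspe1 have overlapping promoters on opposite strands and hold the same stretch, so it was counted for both. The kB site was found in 2 of 25 acute phase genes (8%) and in 4 of 12 inflammatory genes (33.3%), against 145 of 7558 tested genes (1.92%). The inflammatory list also holds genes of NF-kB and its inhibitor, and Nfkb2 and Nfkbia are among its 4 matches. These matches describe letters in a window of 300 bases and say nothing of binding. The lists were made of genes known for such control, so their shares say nothing of the interaction. Of the genes shown, Hsph1 had an interaction of 1.59 (SE 0.61), Chordc1 of 0.61 (SE 0.32), Cxcl1 of -2.44 (SE 0.94) and Serpina3n of -1.51 (SE 0.58). Serpina3n was at -0.88 without AAV_NC_B library 2 and at -0.42 (SE 0.32) without that library and AAV_A library 3, which stood apart for acute phase genes. Without the same 2 libraries Cxcl1 was at -0.85 (SE 0.72), Hsph1 at 1.53 (SE 0.70) and Chordc1 at 0.55 (SE 0.34).

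The gene named in the label did not separate the arms. Akr1b10 (mm10) had 0.527, 0.389, 0.458 and 0.427 FPKM in AAV_A_B libraries, 0.506, 0.351, 0.397 and 0.859 FPKM in AAV_A, 0.194, 0.427, 0.565 and 0.252 FPKM in AAV_NC_B and 0.177, 0.486, 0.42 and 0.505 FPKM in AAV_NC. All 4 groups overlapped. It lay under the filter, and in a fit of the 23256 genes with a count in at least 4 libraries its interaction was -0.29 (SE 0.58, 95% interval -1.52 to 0.94, adjusted p = 0.956, edgeR quasi-likelihood F test, Benjamini-Hochberg), on 47 to 181 counts per library, where 1 count may not be 1 fragment. Akr1b3, the aldose reductase of the mouse, averaged 0.343 ± 0.111 and 0.312 ± 0.198 FPKM with and without berberine in the knockdown-labelled arm, and 0.591 ± 0.097 and 0.420 ± 0.125 FPKM in the control arm (SD, n = 4 each). Its libraries with berberine lay lower in the knockdown-labelled arm than in the control arm with no overlap. The share of all genes with such a separation by label was not counted, here or for Fads2, Irf7 and Hspa1a below. The interaction of Akr1b3 was -0.49 (SE 0.55, adjusted p = 0.895 in the same edgeR fit). Akr1b8, a paralogue, stood at 0.09 (SE 0.62, adjusted p = 0.998), and Akr1b7, at 0 to 25 counts per library, at -1.45 (SE 1.93, adjusted p = 0.918). Because that transcript is not lower in the libraries labelled knockdown, directions below are given for the label and not for a loss of AKR1B10.

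None of the 10846 interactions passed. The edgeR quasi-likelihood F test gave 0 genes (0%) under a Benjamini-Hochberg threshold of 0.05, with 0.756 as the lowest adjusted p. An unadjusted p under 0.05 was reached by 711 genes (6.56%), of which 294 (2.71%) lay above 0 and 417 (3.84%) below, where evenly spread p-values would give 542.3. DESeq2's Wald test called 10 genes and limma on log2(FPKM + 1) called 0. On that FPKM scale the median of all genes moved up to 0.14, against -0.01 by edgeR, and the split of the 848 genes at unadjusted p under 0.05 turned to 697 above and 151 below 0. The directions named below are therefore those of the edgeR fit, with exceptions stated. The median standard error of a gene was 0.35 log2 units, and for 4951 genes (45.6%) the 95% interval lay within 1 log2 unit of 0. In the edgeR fit of all 16 libraries no gene passed the adjusted threshold, and verbs below describe where values lay, not calls. Counts of list members below stand beside 48.8% of all genes above 0. At an unadjusted p under 0.05 they stand beside 2.71% above and 3.84% below.

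Across all genes, berberine's effects in the 2 arms, which share no library, had a Pearson correlation of -0.14 and a Spearman correlation of -0.09, described over 10846 genes that are not independent of each other. The effect had opposite signs in the 2 arms for 5836 genes (53.8%), and was larger in size in the knockdown-labelled arm for 6495 (59.9%). At an unadjusted p under 0.05, the effect of berberine singled out 1028 of 10846 genes in the knockdown-labelled arm and 399 in the control arm. Evenly spread p-values would give 542.3. The same interaction can be read the other way. The label difference had an unadjusted p under 0.05 for 496 of 10846 genes with berberine and for 1603 without it, beside the same 542.3. Both larger counts use AAV_A, whose 4 libraries had library weights (voom) of 1.84, 0.48, 0.75 and 0.17, against 0.73 to 2.05 elsewhere. The part of these libraries in the counts was not tested.

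**Figure D1:**
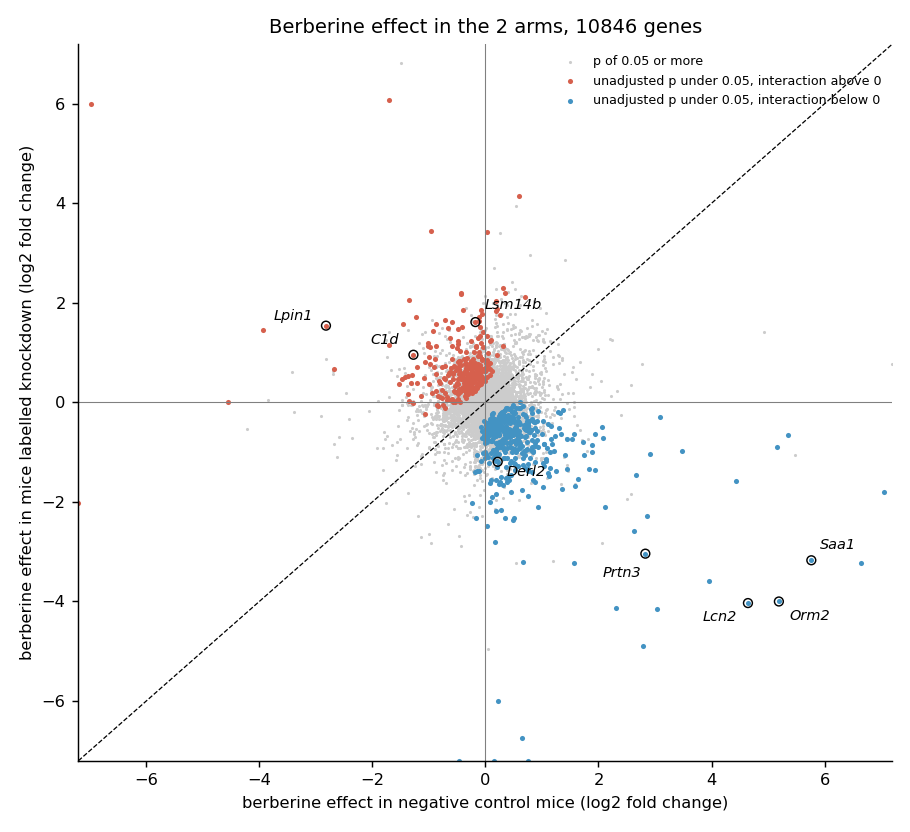
Each point is a gene, with the log2 effect of berberine in the negative control arm on the x axis and in the knockdown-labelled arm on the y axis (10846 genes, 5 of them drawn at the edge of the axes at 7.2). The dashed line marks equal effects, and the 294 and 417 genes at an unadjusted p under 0.05 lie away from it to the upper left and lower right, with Saa1, Orm2 and Lcn2 far to the lower right.

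A complete separation in both arms was rare. In the knockdown-labelled arm 424 genes (3.91%) had no overlap between libraries with and without berberine, and in the control arm 385 genes (3.55%). With no overlap in either arm and the same direction, 2 genes (0.0184%) lay above in both and 3 (0.0277%) below in both. A further 6 genes (0.0553%) had no overlap in either arm and opposite directions. The 6 of opposite directions are named here after their values were seen. Mpc1, the mitochondrial pyruvate carrier subunit, averaged 18.4 ± 1.19 FPKM with berberine against 10.11 ± 4.93 FPKM without it in the knockdown-labelled arm, and 14.3 ± 3.11 against 19.4 ± 2.03 FPKM in the control arm (SD, n = 4 each). Its interaction was 1.18 (SE 0.39). Gm12671 had nearly the same values, and reads shared between both cannot be assigned. Rbm12b1 stood at 2.95 (SE 0.72) and B430119L08Rik at 1.22 (SE 0.27), also above 0. Zdhhc20, a palmitoyltransferase, stood at -1.19 (SE 0.30) and Gm15638 at -1.39 (SE 0.36).

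Among genes with an official symbol and a group mean of at least 5 FPKM, C1d had the smallest p above 0 and Lsm14b the second smallest. Both act in RNA turnover. C1d, which recruits the nuclear RNA exosome, had 7.59, 4.09, 3.17 and 3.05 FPKM in the knockdown-labelled arm with berberine, against 2.47, 3.05, 2.27 and 0.656 FPKM there without it. Control-arm C1d was at 3.18, 2.86, 3.32 and 3.70 FPKM with berberine, against 8.50, 8.48, 7.79 and 7.01 FPKM without it. In the control arm the 4 berberine libraries lay below all 4 untreated libraries, while in the knockdown-labelled arm 3 of the 4 berberine libraries lay above all untreated ones and the fourth was level with the highest of them. The interaction of C1d (chromosome 11, 17257579 to 17266624, plus strand) was 2.23 (SE 0.46, 95% interval 1.24 to 3.22), with an unadjusted p of 0.000232 and an adjusted p of 0.0094 by DESeq2.

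Lsm14b, an RNA-binding protein of cytoplasmic messenger granules, had 8.81, 9.31, 8.23 and 8.96 FPKM in the knockdown-labelled arm with berberine, against 2.24, 4.004, 2.01 and 2.07 FPKM there without it. Control-arm Lsm14b was at 10.03, 5.36, 4.07 and 4.91 FPKM with berberine, against 4.51, 5.48, 8.14 and 9.57 FPKM without it. The knockdown-labelled groups did not overlap and the control groups did. Its interaction was 1.79 (SE 0.43, 95% interval 0.88 to 2.70). Leng8, a nuclear RNA-processing protein, stood at 1.49 (SE 0.51) with berberine effects of 1.75 in the knockdown-labelled arm and 0.26 in the control arm. As a list, genes of RNA decay were spread to both sides. Of 25 tested members of the list, 7 lay above 0 and 18 below, 3 and 1 of them at an unadjusted p under 0.05, with a median of -0.04 whose sign changed under 3 alternatives. Exosc5, a subunit of the exosome ring, stood at -0.51 (SE 0.22).

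Genes of fatty acid synthesis leaned above 0 as a group. Of 15 tested members 14 lay above 0 (all genes 48.8%). An unadjusted p under 0.05 was reached by 7 of them (all genes 2.71% above 0), with a list median of 0.83 against -0.01 over all genes. Without AAV_A library 3 and AAV_NC_B library 2 the counts were 13 above 0 and 3 at that level (median 0.93). The median berberine effect of the list was 0.57 in the knockdown-labelled arm and -0.29 in the control arm. Fasn, fatty acid synthase, had 44.96, 28.1, 20.1 and 12.3 FPKM in the knockdown-labelled arm with berberine, against 10.04, 11.8, 10.6 and 9.17 FPKM there without it. Control-arm Fasn was at 12.2, 5.69, 10.8 and 14.5 FPKM with berberine, against 9.54, 21.9, 14.1 and 14.9 FPKM without it. In FPKM, all berberine libraries exceeded the untreated ones in the knockdown-labelled arm, by a narrow margin for library 4, and the control groups overlapped. With TMM factors of 1.02 in AAV_A_B library 4 and 0.96 in AAV_A library 2, that margin may close. Its interaction was 1.65 (SE 0.46, 95% interval 0.66 to 2.64), and without AAV_A_B library 1, the highest, it was 1.28.

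Fads2, the delta-6 desaturase of polyunsaturated fatty acid synthesis, had 237, 216, 249 and 144 FPKM in the knockdown-labelled arm with berberine, against 133, 146, 89.6 and 66.2 FPKM there without it. Control-arm Fads2 was at 213, 121, 231 and 177 FPKM with berberine, against 241, 384, 162 and 251 FPKM without it. Libraries of AAV_A lay below all libraries of AAV_NC, whereas AAV_A_B and AAV_NC_B libraries overlapped. The interaction was 1.29 (SE 0.38, 95% interval 0.49 to 2.09). Its neighbour Fads1, the delta-5 desaturase, stood at 1.06 (SE 0.33), and Me1, the malic enzyme that supplies NADPH, at 1.45 (SE 0.55). Sterol synthesis differed in form, since berberine's effect was above 0 in both arms (list medians 0.99 and 0.69). Of its 20 members 19 lay above 0 and 2 reached an unadjusted p under 0.05, with a median interaction of 0.55 that was 0.20 without AAV_A_B library 2, 0.34 without AAV_NC library 3 and 0.36 without AAV_A library 4. Without AAV_A library 3 and AAV_NC_B library 2, 17 lay above 0 and 0 reached that level by edgeR. Acat2, the cytosolic thiolase, stood at 0.83 (SE 0.38).

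Genes that store, take up and bind fatty acids were mixed. Of 20 triglyceride and droplet genes 17 lay above 0, with 3 at an unadjusted p under 0.05 and a median of 0.49, which was 0.30 without AAV_A libraries 3 and 4. Lpin1, a phosphatidate phosphatase and transcriptional coactivator, had 1.55, 0.654, 6.96 and 2.19 FPKM in the knockdown-labelled arm with berberine, against 0.675, 1.40, 0.737 and 0.736 FPKM there without it. Control-arm Lpin1 was at 0.248, 1.11, 1.13 and 1.07 FPKM with berberine, against 0.461, 7.48, 16.2 and 0.997 FPKM without it. The interaction of 4.36 (SE 1.32, 95% interval 1.54 to 7.18) came from wide groups that overlapped in both arms. AAV_NC libraries 2 and 3 and AAV_A_B library 3 were the high ones, and without AAV_NC library 3 it was 3.20. Fitm2, which partitions fat into droplets, stood at 0.58 (SE 0.20) and Plin5, a droplet coat protein, at 0.74 (SE 0.34).

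Among uptake and lipoprotein genes 14 of 24 lay above 0, and the median of 0.05 changed sign under 5 alternatives, but single members stood to both sides. Cd36, a fatty acid translocase, had 18.5, 18.3, 19.99 and 21.8 FPKM in the knockdown-labelled arm with berberine, against 8.57, 18.5, 3.46 and 2.59 FPKM there without it. Control-arm Cd36 was at 16.004, 14.4, 7.71 and 17.1 FPKM with berberine, against 29.7, 28.2, 17.4 and 26.8 FPKM without it. The control groups did not overlap, and in the other arm AAV_A library 2 reached the level of the berberine libraries. The interaction was 1.99 (SE 0.63, 95% interval 0.64 to 3.34). Fabp2, a fatty acid binding protein, had 160.3, 125, 140.5 and 185 FPKM in the knockdown-labelled arm with berberine, against 143, 119, 85.1 and 53.5 FPKM there without it. Control-arm Fabp2 was at 140.5, 84.2, 125 and 104 FPKM with berberine, against 186, 197, 154 and 211 FPKM without it. It behaved alike, with no overlap in the control arm and 1.19 (SE 0.32, 95% interval 0.52 to 1.86). Fabp1, the liver form, stood at 0.70 (SE 0.31).

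Lpl, the lipase that releases fatty acids from triglyceride-rich lipoproteins, had 3.57, 2.78, 2.62 and 1.56 FPKM in the knockdown-labelled arm with berberine, against 3.96, 2.42, 3.55 and 3.85 FPKM there without it. Control-arm Lpl was at 5.97, 6.14, 4.73 and 3.95 FPKM with berberine, against 3.65, 2.53, 2.61 and 2.33 FPKM without it. Lpl lay on the other side of 0. All control-arm libraries with berberine exceeded those without it, the knockdown-labelled groups overlapped, and the interaction was -1.49 (SE 0.36, 95% interval -2.27 to -0.71).

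Oxidation and ketogenesis genes, many of them targets of PPARa, leaned above 0 by small amounts. Of 35 members 32 lay above 0, with 3 at an unadjusted p under 0.05 and a median of 0.37. Berberine's effect was above 0 for 26 of the 35 in the knockdown-labelled arm and for 1 in the control arm. Bdh1, the dehydrogenase that makes 3-hydroxybutyrate, had 67.4, 52.4, 57.6 and 63.3 FPKM in the knockdown-labelled arm with berberine, against 39.96, 49.1, 36.5 and 19.9 FPKM there without it. Control-arm Bdh1 was at 46.6, 49.6, 48.05 and 52.7 FPKM with berberine, against 58.7, 89.7, 39.2 and 84.8 FPKM without it. The knockdown-labelled groups did not overlap in FPKM, by a narrow margin (52.4 against 49.1 FPKM). It may close with the TMM factors of these libraries (1.08 in AAV_A_B library 2 and 0.96 in AAV_A library 2). The interaction of Bdh1 was 1.03 (SE 0.32, 95% interval 0.35 to 1.72). Decr1, of unsaturated fatty acid oxidation, stood at 0.63 (SE 0.29). The median was 0.23 without AAV_A library 3, and 0.20 with 27 above 0 without AAV_A libraries 3 and 4.

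Glycolysis, fructose and glycogen genes also lay mostly above 0, 18 of 23 in all, with 4 of them at an unadjusted p under 0.05 and a median of 0.47. Without AAV_A libraries 3 and 4, the count above 0 was again 18, with 1 at that level and a median of 0.26. Gbe1, the glycogen branching enzyme, had 5.65, 7.74, 5.45 and 4.77 FPKM in the knockdown-labelled arm with berberine, against 2.84, 6.60, 2.16 and 1.31 FPKM there without it. Control-arm Gbe1 was at 5.50, 3.24, 3.90 and 7.10 FPKM with berberine, against 7.204, 9.97, 6.15 and 5.66 FPKM without it. Both arms overlapped, and the interaction was 1.28 (SE 0.52, 95% interval 0.18 to 2.38). Pklr, liver pyruvate kinase, stood at 1.03 (SE 0.42) and at 0.67 without AAV_NC library 4. Ppp1r3b, which targets a phosphatase to glycogen, stood at 1.24 (SE 0.54) and at 0.77 without AAV_NC library 3.

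**Figure D2:**
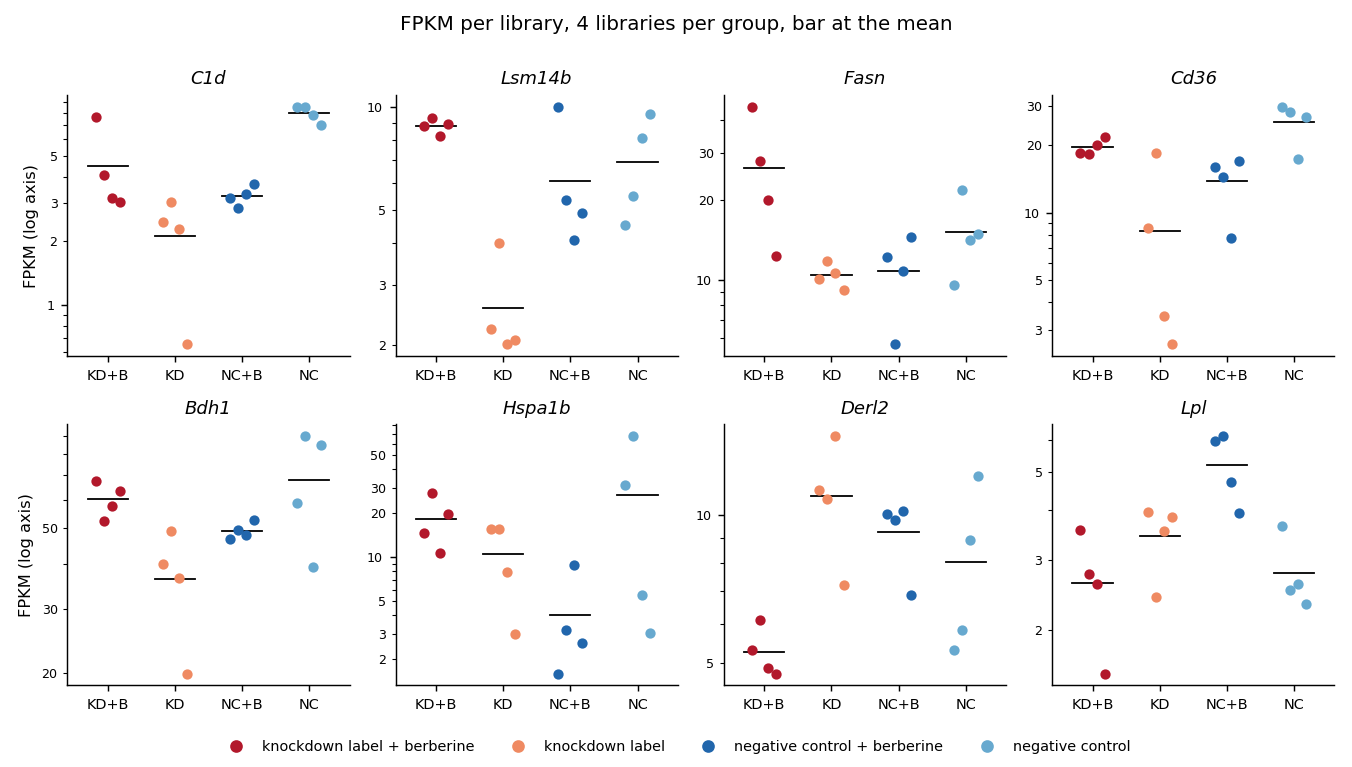
FPKM of 8 genes in each library (log axes), with 4 libraries per group and a bar at the group mean; KD is the knockdown label, NC the negative control and B berberine. In FPKM, Lsm14b, Fasn and Bdh1 are higher with berberine than without it in all knockdown-labelled libraries. Derl2 is lower there, and Lpl is higher with berberine in all control libraries.

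Aldo-keto reductases, the superfamily of the labelled gene, were listed together with aldehyde dehydrogenases, and their values were small. Of 27 such enzymes tested 23 lay above 0, with 3 above and 1 below at an unadjusted p under 0.05, and a median of 0.31. The median was 0.50 without AAV_A library 2, 0.17 without AAV_A library 4, and 0.03 with 15 above 0 without AAV_A libraries 3 and 4. Akr1e1, a reductase of the same superfamily, had 10.1, 10.4, 5.80 and 10.8 FPKM in the knockdown-labelled arm with berberine, against 4.72, 5.72, 4.88 and 3.79 FPKM there without it. Control-arm Akr1e1 was at 9.22, 8.68, 8.70 and 9.81 FPKM with berberine, against 9.87, 10.6, 8.69 and 5.50 FPKM without it. The knockdown-labelled groups did not overlap in FPKM, by a narrow margin (5.80 against 5.72 FPKM). It may close with the TMM factors of these libraries (1.01 in AAV_A_B library 3 and 0.96 in AAV_A library 2). The interaction of Akr1e1 was 0.72 (SE 0.29, 95% interval 0.10 to 1.33). Aldh1a7 stood at 0.64 (SE 0.27), Aldh4a1 of proline breakdown at 0.61 (SE 0.28) and the mitochondrial Aldh1b1 at -0.55 (SE 0.25).

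NRF2 targets, which conjugate and reduce reactive compounds, had 14 of 22 members above 0, with 4 above and 1 below at an unadjusted p under 0.05, and a median of 0.23. Gsta2, a glutathione transferase, had 17.8, 13.1, 16.6 and 20.3 FPKM in the knockdown-labelled arm with berberine, against 9.27, 10.9, 4.79 and 7.77 FPKM there without it. Control-arm Gsta2 was at 12.2, 7.96, 14.7 and 10.9 FPKM with berberine, against 17.5, 15.5, 12.9 and 11.4 FPKM without it. No overlap was seen in the knockdown-labelled arm, and the interaction was 1.20 (SE 0.35, 95% interval 0.45 to 1.96). Its near-identical copy Gsta1 stood at 1.48 (SE 0.58), and reads shared by both make each value uncertain. Gsta4, which conjugates hydroxynonenal, stood at 1.20 (SE 0.39). Cbr1, a carbonyl reductase, lay on the other side at -1.14 (SE 0.44).

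Heat shock proteins and their cochaperones, which refold damaged proteins under the control of HSF1, were the list with the most members at an unadjusted p under 0.05 above 0. Of 22 members 21 lay above 0 and 11 reached that level, with a median of 0.69 that stayed between 0.58 and 0.91 under the 28 alternatives run. The number at that level was 8 without AAV_A library 3 and AAV_NC_B library 2, and 6 without AAV_A libraries 3 and 4. Berberine's effect was above 0 for 21 members in the knockdown-labelled arm (median 0.38) and for 2 in the control arm (median -0.29). Hspa1b, an inducible HSP70, had 14.7, 27.6, 10.7 and 19.9 FPKM in the knockdown-labelled arm with berberine, against 15.7, 15.5, 7.87 and 2.996 FPKM there without it. Control-arm Hspa1b was at 1.60, 3.19, 8.81 and 2.58 FPKM with berberine, against 31.3, 67.3, 5.55 and 3.04 FPKM without it. Both arms overlapped, with AAV_NC libraries 1 and 2 the highest of all and AAV_NC_B library 1 the lowest. Its interaction was 3.35 (SE 1.12, 95% interval 0.96 to 5.75).

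Hspa1a, the other inducible HSP70 gene beside it, had 2.36, 4.62, 3.46 and 0.953 FPKM in the knockdown-labelled arm with berberine, against 1.39, 1.17, 0.908 and 0.319 FPKM there without it. Control-arm Hspa1a was at 0.0978, 0.17, 0.747 and 0.0663 FPKM with berberine, against 9.23, 6.42, 0.969 and 0.273 FPKM without it. The berberine libraries of the 2 arms did not overlap. Its interaction was 5.38 (SE 1.34, 95% interval 2.53 to 8.23), with an adjusted p of 0.00997 by DESeq2, and the 2 genes share most of their coding sequence, so their counts are uncertain. Dnaja1, an HSP40 cochaperone, had 25.2, 30.7, 23.2 and 29.6 FPKM in the knockdown-labelled arm with berberine, against 16.3, 27.8, 16.3 and 7.09 FPKM there without it. Control-arm Dnaja1 was at 13.8, 11.8, 17.01 and 21.02 FPKM with berberine, against 23.6, 30.02, 17.6 and 24.3 FPKM without it. AAV_A library 4 was the lowest and AAV_A library 2 reached the berberine libraries. The interaction was 1.14 (SE 0.38, 95% interval 0.32 to 1.95). Dnajb1, another HSP40, stood at 1.38 (SE 0.45), and Hsph1, an HSP110, had 8.43, 11.2, 4.07 and 7.86 FPKM with berberine against 5.99, 8.04, 6.60 and 1.67 FPKM without it in the knockdown-labelled arm, and 1.95, 2.09, 4.24 and 3.90 FPKM against 7.34, 12.7, 4.17 and 4.37 FPKM in the control arm.

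Clock genes lay mostly above 0 (18 of 20) with 1 member at an unadjusted p under 0.05 and a median of 0.73. The median was 0.28 without AAV_A_B library 4 and 0.40 without AAV_NC library 4. Bhlhe40, a transcriptional repressor of the clock, had 8.55, 6.52, 16.1 and 9.96 FPKM in the knockdown-labelled arm with berberine, against 5.19, 13.8, 8.28 and 0.785 FPKM there without it. Control-arm Bhlhe40 was at 3.69, 2.10, 3.75 and 3.79 FPKM with berberine, against 6.49, 12.5, 8.17 and 10.1 FPKM without it. The control groups did not overlap, and the interaction was 1.94 (SE 0.74, 95% interval 0.36 to 3.51). Usp2, a clock-driven deubiquitinase, stood at 3.20 (SE 1.51) and at 1.38 without AAV_A_B library 4, and Ciart, a repressor of the clock, at 2.64 (SE 1.47) and at 0.98 without it.

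Genes of the endoplasmic reticulum were divided, near the split of all genes. Of 33 members 18 lay above 0 (54.5%, all genes 48.8%). At an unadjusted p under 0.05 were 2 above (all genes 2.71%) and 2 below (all genes 3.84%). The median of 0.06 changed sign under 3 alternatives. Derl2, which exports misfolded proteins for degradation, had 5.30, 6.11, 4.88 and 4.75 FPKM in the knockdown-labelled arm with berberine, against 11.3, 10.8, 14.5 and 7.21 FPKM there without it. Control-arm Derl2 was at 10.1, 9.77, 10.2 and 6.87 FPKM with berberine, against 5.32, 5.82, 8.88 and 12.03 FPKM without it. All berberine libraries lay below the untreated ones in the knockdown-labelled arm, and the control groups overlapped. The interaction of Derl2 (chromosome 11, 71007164 to 71019303) was -1.41 (SE 0.33, 95% interval -2.12 to -0.70). Edem2, which trims mannose from misfolded glycoproteins, stood at -0.53 (SE 0.16).

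Txndc5, a disulfide isomerase, had 38.9, 33.1, 33.9 and 32.3 FPKM in the knockdown-labelled arm with berberine, against 23.3, 34.9, 36.4 and 19.9 FPKM there without it. Control-arm Txndc5 was at 13.2, 10.8, 22.1 and 17.7 FPKM with berberine, against 27.3, 31.1, 22.6 and 34.2 FPKM without it. Here the control groups did not overlap and the knockdown-labelled groups did, with 0.97 (SE 0.28, 95% interval 0.38 to 1.57). Atf6, a stress-sensing transcription factor, stood at 0.52 (SE 0.21). Zfyve21, a membrane-binding protein of focal adhesions, had wide groups in both arms and stood at -1.84 (SE 0.45, 95% interval -2.79 to -0.89). Its values were 5.30, 8.12, 7.46 and 5.07 FPKM with berberine and 14.2, 6.87, 16.1 and 9.66 FPKM without it in the knockdown-labelled arm, and 14.4, 12.9, 5.43 and 17.6 FPKM with berberine and 6.59, 8.20, 7.99 and 5.40 FPKM without it in the control arm.

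The remaining named genes above 0 have varied roles. Nectin1, a cell adhesion protein, stood at 0.94 (SE 0.24, 95% interval 0.43 to 1.46), Atxn2l, an RNA-binding relative of ataxin 2, at 0.70 (SE 0.21, 95% interval 0.27 to 1.14), Sgf29, a histone reader of the SAGA complex, at 0.64 (SE 0.19, 95% interval 0.23 to 1.05) and Mnd1, a meiotic recombination factor, at 0.82 (SE 0.23, 95% interval 0.34 to 1.31). Nectin1 had 10.5, 11.05, 8.56 and 7.03 FPKM in the knockdown-labelled arm with berberine, against 5.27, 5.48, 4.45 and 4.69 FPKM there without it. Control-arm Nectin1 was at 8.13, 4.93, 6.06 and 7.90 FPKM with berberine, against 7.57, 9.43, 7.96 and 6.47 FPKM without it. These 4 genes had no overlap in the knockdown-labelled arm and overlapped in the control arm.

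Acute phase genes, which hepatocytes make in answer to interleukin 6, lay almost all below 0. Of 30 members 28 lay below 0 and 19 reached an unadjusted p under 0.05, with a median of -1.48. The median effect of berberine was -0.77 in the knockdown-labelled arm and 0.80 in the control arm. Saa1, serum amyloid A, had 9.31, 10.8, 62.8 and 21.8 FPKM in the knockdown-labelled arm with berberine, against 38.6, 21.5, 867 and 5.02 FPKM there without it. Control-arm Saa1 was at 22.4, 1690.5, 32.6 and 49.9 FPKM with berberine, against 6.29, 9.58, 9.84 and 9.85 FPKM without it. AAV_A library 3 and AAV_NC_B library 2 were far above all others. The control groups still did not overlap. The interaction was -8.94 (SE 2.32, 95% interval -13.89 to -3.99) with all libraries, -5.13 without AAV_NC_B library 2 and -1.78 (SE 0.92) without those 2. Saa2, a near-identical copy whose reads may be shared, stood at -9.87 (SE 2.68), at -5.12 without AAV_NC_B library 2 and at -1.09 (SE 1.06) without both.

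Orm2, an orosomucoid, had 8.26, 7.25, 43.5 and 21.1 FPKM in the knockdown-labelled arm with berberine, against 32.3, 14.1, 1199 and 20.01 FPKM there without it. Control-arm Orm2 was at 6.21, 750.1, 19.8 and 23.6 FPKM with berberine, against 2.98, 4.33, 4.32 and 12.1 FPKM without it. The same 2 libraries stood out. Orm2 was at -9.19 (SE 2.38) with all libraries, at -5.47 without AAV_NC_B library 2 and at -1.77 (SE 0.94) without the 2, and the copies of the family share reads. Lcn2, a siderophore-binding lipocalin, had 3.06, 2.75, 10.1 and 4.64 FPKM in the knockdown-labelled arm with berberine, against 15.4, 2.55, 313 and 1.34 FPKM there without it. Control-arm Lcn2 was at 2.75, 152, 3.45 and 3.10 FPKM with berberine, against 0.994, 1.68, 2.30 and 1.93 FPKM without it. Its interaction was -8.68 (SE 2.35), -4.85 without AAV_NC_B library 2 and -1.24 (SE 0.93) without the 2. For the list, the median was -1.01 without AAV_A library 3, -0.95 without AAV_NC_B library 2 and -0.37 without both, when 21 of 30 members lay below 0 and 2 reached an unadjusted p under 0.05.

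C4b, complement component 4, had 145, 194, 177 and 137 FPKM in the knockdown-labelled arm with berberine, against 232, 156, 302 and 166 FPKM there without it. Control-arm C4b was at 135, 243, 145 and 163 FPKM with berberine, against 116, 128, 117 and 123 FPKM without it. The control groups did not overlap. The interaction was -1.07 (SE 0.31, 95% interval -1.73 to -0.40) and -0.64 (SE 0.23) without AAV_A library 3 and AAV_NC_B library 2. Cyp21a2-ps, a pseudogene next to a C4 gene, stood at -2.61 (SE 0.69) and at -1.87 (SE 0.60) without them, with reads of its parent gene possible. Fam25c stood at -2.47 (SE 0.70) and at -1.25 (SE 0.45) without them. Mup-ps22, a pseudogene of the major urinary proteins whose reads cannot be assigned with certainty, stood at -2.53 (SE 0.62) and at -1.89 (SE 0.58) without them.

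**Figure D3:**
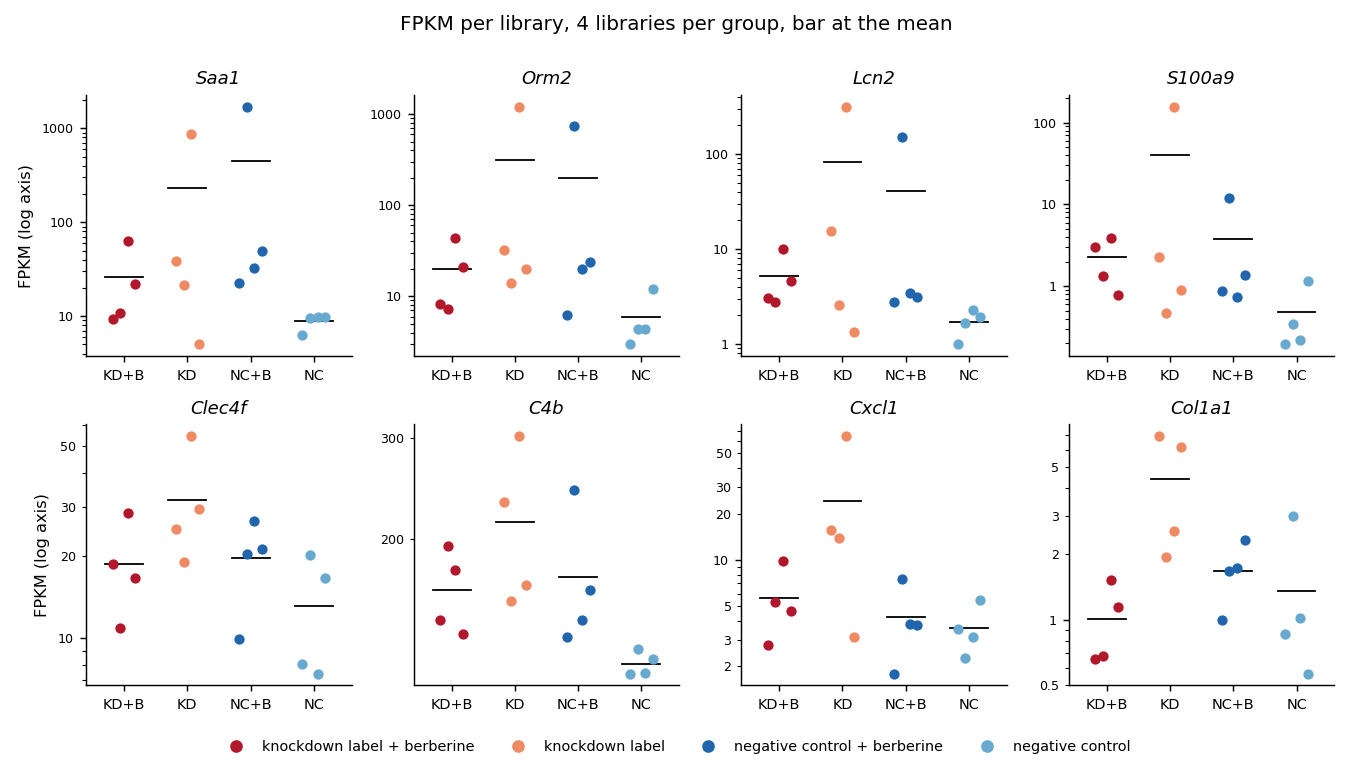
FPKM of 8 genes of inflammation and collagen in each library (log axes), with 4 libraries per group and a bar at the group mean; KD is the knockdown label, NC the negative control and B berberine. Saa1 reaches 867 FPKM in AAV_A library 3 and 1690.5 FPKM in AAV_NC_B library 2, which also stand out for Orm2, Lcn2 and S100a9.

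Inflammatory mediators and interferon-stimulated genes lay on the same side by less. Of 15 tested inflammatory genes 12 lay below 0, 3 of them at an unadjusted p under 0.05, with a median of -0.65. It was -0.31 without AAV_A library 4, -0.38 without AAV_NC_B library 3, -0.41 without AAV_A library 3, -0.99 without AAV_A or AAV_NC library 2 and -1.10 without AAV_A_B library 3. Without AAV_A library 3 and AAV_NC_B library 2 it was -0.40, and on the log2(FPKM + 1) scale -0.12. Cxcl1, a neutrophil chemokine, had 2.77, 5.25, 9.85 and 4.61 FPKM in the knockdown-labelled arm with berberine, against 15.7, 13.9, 64.5 and 3.12 FPKM there without it. Control-arm Cxcl1 was at 1.80, 7.47, 3.82 and 3.73 FPKM with berberine, against 3.51, 2.28, 3.10 and 5.42 FPKM without it. The interaction was -2.44 (SE 0.94) with all libraries, -1.35 without AAV_A library 3 and -0.85 (SE 0.72) without the 2. Icam1, an adhesion protein, stood at -1.82 (SE 0.67) and -1.15 (SE 0.66) without the 2, and the chemokine Cxcl14 at -4.12 (SE 1.45), -1.99 without AAV_NC_B library 2 and -0.39 (SE 0.79) without the 2. Il6 and Tnf were under 1 FPKM in all libraries.

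Among interferon genes 17 of 25 lay below 0, 3 of them at an unadjusted p under 0.05, with a median of -0.30 that was -0.14 without AAV_A library 4 and -0.16 without AAV_A_B library 1. Irf7, a transcription factor of interferon induction, had 5.33, 4.77, 6.70 and 8.003 FPKM in the knockdown-labelled arm with berberine, against 8.77, 5.45, 10.2 and 11.03 FPKM there without it. Control-arm Irf7 was at 4.17, 5.46, 6.93 and 6.64 FPKM with berberine, against 4.11, 3.72, 4.70 and 5.32 FPKM without it. Both arms overlapped, while all AAV_A libraries exceeded all AAV_NC libraries. The interaction was -1.07 (SE 0.36, 95% interval -1.85 to -0.29) and -1.05 (SE 0.42) without AAV_A library 3 and AAV_NC_B library 2. Oas1a, an antiviral oligoadenylate synthetase, stood at -1.28 (SE 0.42) and Xaf1 at -0.88 (SE 0.41).

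Markers of macrophages and neutrophils lay on the same side of 0 as the acute phase genes. In bulk liver, fewer cells of a type and less RNA per cell cannot be told apart. Of 20 tested markers of Kupffer cells and macrophages 19 lay below 0, with 3 at an unadjusted p under 0.05 and a median of -1.15 (-0.72 without AAV_A library 3, -0.60 without it and AAV_NC_B library 2). Their summed level ranged from 131 to 356 FPKM in AAV_A_B, 165 to 470 in AAV_A, 116 to 270 in AAV_NC_B and 111 to 251 in AAV_NC. Clec4f, a lectin of Kupffer cells, had 18.6, 10.9, 28.5 and 16.5 FPKM in the knockdown-labelled arm with berberine, against 24.96, 18.9, 54.5 and 29.6 FPKM there without it. Control-arm Clec4f was at 9.93, 20.2, 26.8 and 21.2 FPKM with berberine, against 8.07, 20.1, 7.41 and 16.5 FPKM without it. The groups overlapped in both arms, and the interaction was -1.54 (SE 0.57, 95% interval -2.76 to -0.32) and -1.18 (SE 0.60) without the 2. Mpeg1, a pore-forming protein of macrophages, stood at -1.24 (SE 0.44) and -0.70 (SE 0.38) without the 2. Spp1, osteopontin, stood at -1.29 (SE 0.42), -0.80 without AAV_NC_B library 2 and -0.75 (SE 0.28) without the 2. Their part in the acute phase result was not tested.

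Only 4 of 16 neutrophil markers were tested, and 6, with Ly6g and Cxcr2 among them, were under 1 FPKM in all libraries. All 4 lay below 0, with 2 at an unadjusted p under 0.05, and their median of -4.31 was -1.66 without AAV_A library 3. S100a9, a calcium-binding protein of neutrophils, had 3.01, 1.32, 3.91 and 0.79 FPKM in the knockdown-labelled arm with berberine, against 2.26, 0.471, 155 and 0.9 FPKM there without it. Control-arm S100a9 was at 0.879, 12.02, 0.738 and 1.39 FPKM with berberine, against 0.195, 0.345, 0.22 and 1.17 FPKM without it. AAV_A library 3 stood far above the rest. S100a9 was at -7.19 (SE 2.22) with all libraries, -2.31 without AAV_A library 3 and -0.31 (SE 0.99) without it and AAV_NC_B library 2. S100a8 was at -7.68 (SE 2.67), -2.84 without AAV_A library 3 and -1.02 (SE 2.02) without the 2. The granule protease Prtn3 was at -5.87 (SE 1.65), -3.57 without AAV_NC_B library 2 and -1.41 (SE 0.79) without the 2. Prtn3 had an adjusted p of 0.0291 by DESeq2 with all libraries.

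Stellate cell and collagen genes were mixed, with 11 of 18 below 0 and a median of -0.28 that was -0.08 without AAV_A library 4, -0.04 without AAV_A libraries 3 and 4, and 0.25 at a filter of 5 FPKM. With 1 library left out it lay between -0.45 and -0.08, the lowest without AAV_A_B library 3. The chains of type I collagen lay further out. Col1a1, type I collagen, had 0.659, 0.683, 1.52 and 1.14 FPKM in the knockdown-labelled arm with berberine, against 6.93, 1.94, 2.54 and 6.21 FPKM there without it. Control-arm Col1a1 was at 0.994, 1.67, 1.72 and 2.31 FPKM with berberine, against 0.859, 2.98, 1.02 and 0.565 FPKM without it. All berberine libraries lay below the untreated ones in the knockdown-labelled arm, and the interaction was -2.66 (SE 0.75, 95% interval -4.26 to -1.06), or -2.84 (SE 0.81) without AAV_A library 3 and AAV_NC_B library 2. Col1a2, the other chain of the same collagen, stood at -1.49 (SE 0.51). Lrat, which stores retinol in stellate cells, lay above 0 at 0.94 (SE 0.44).

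The position of mitochondrially encoded transcripts rested on 1 library. All 15 lay below 0 with none at an unadjusted p under 0.05 and a median of -0.56, which was 0.00 with 8 of 15 above 0 without AAV_A library 4. That library took 35.4% of its counts from these genes, against 10.98% to 15.9% in the other 15 libraries. mt-Nd1, a subunit of complex I, had 12497, 8453, 9060.4 and 9951 FPKM in the knockdown-labelled arm with berberine, against 14206, 8756, 9743 and 28408 FPKM there without it. Control-arm mt-Nd1 was at 9152, 10081, 10096 and 10244 FPKM with berberine, against 10400.5, 8688, 10095 and 9927 FPKM without it. The interaction of mt-Nd1 was -0.88 (SE 0.49) with all libraries and -0.25 without AAV_A library 4, and mt-Cytb, of complex III, stood at -0.80 (SE 0.57) and -0.02. Levels of albumin transcript ran from 6810 FPKM in that library to 20973 FPKM at most elsewhere. FPKM is scaled to a library total that holds the mitochondrial counts, so nuclear genes of AAV_A library 4 read lower on that scale (TMM factor 0.776). How much of the albumin value this makes up was not tested.

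**Figure D4:**
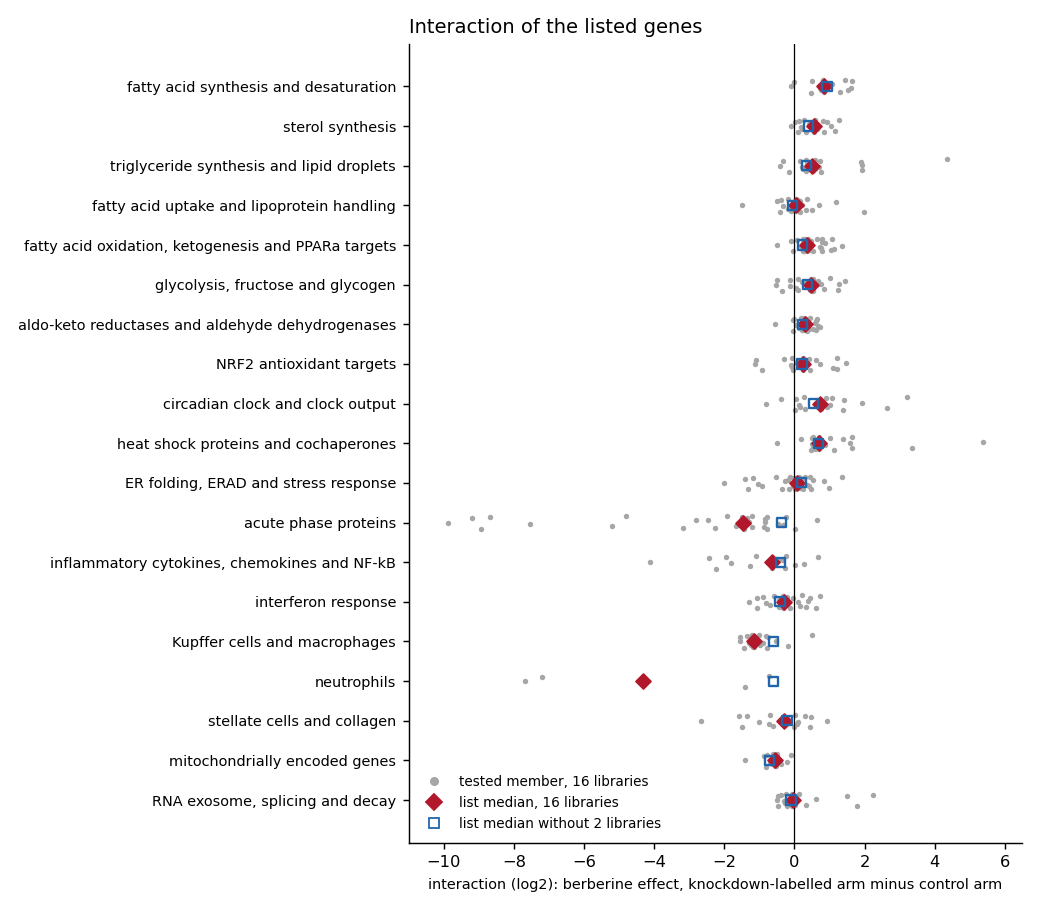
Interaction (log2) of the tested members of 19 gene lists, with grey points for members, red diamonds for the median over 16 libraries and open blue squares for the median without AAV_A library 3 and AAV_NC_B library 2. The acute phase median lies at -1.48 and -0.37, the neutrophil median at -4.31 and -0.61, and the heat shock median at 0.69 and 0.68.

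**Figure D5:**
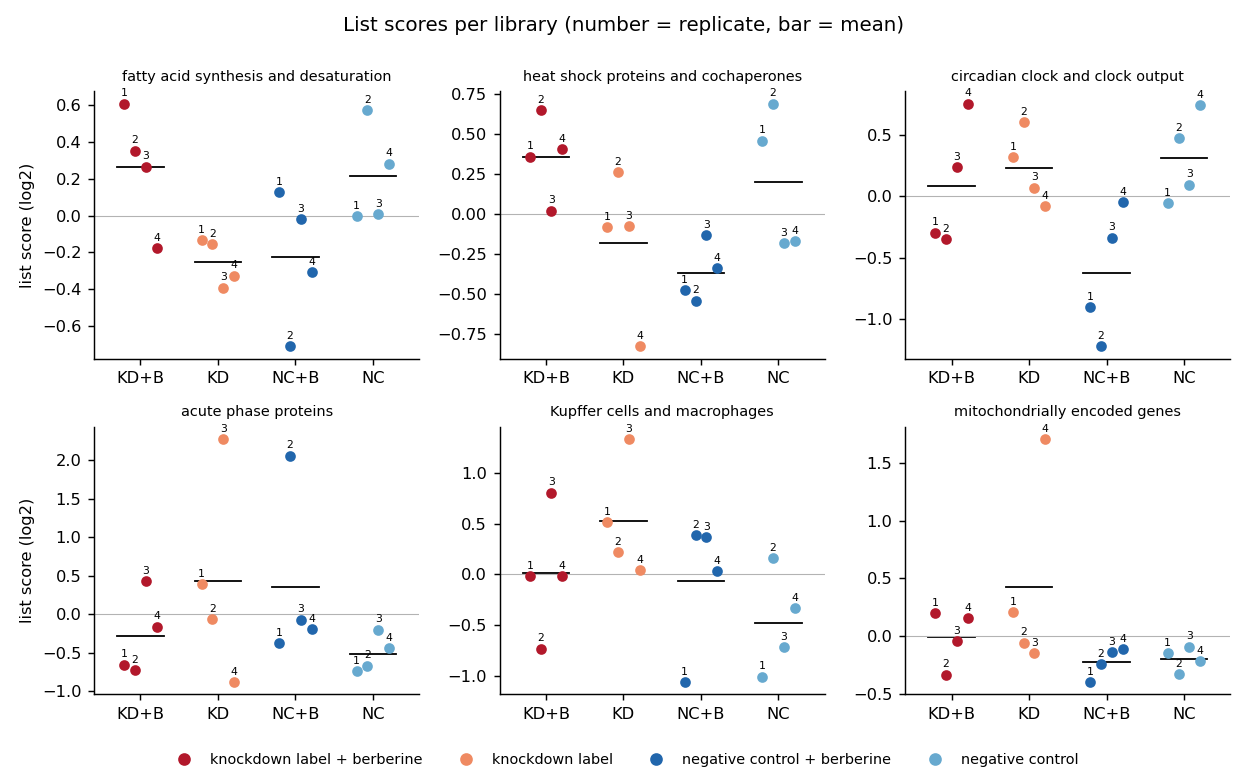
List scores in each library (log2 CPM averaged over tested members, centred on 0 over the 16 libraries), with replicate numbers beside the points and a bar at the group mean. Acute phase scores reach 2.28 in AAV_A library 3 and 2.06 in AAV_NC_B library 2, and the mitochondrial score 1.71 in AAV_A library 4, while heat shock scores of AAV_NC_B all lie below 0.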

How the data were processed

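Liver poly(A) RNA of 16 libraries in 4 groups of 4 was analysed, grouped by the titles. The submitters' processing notes name HISAT2 2.0.4, StringTie 1.3.4d, cutadapt 1.9, DESeq2 and edgeR and the build mm10, and their roles are not given in the sources used here. Each library has a column of counts, not normalized, and one of FPKM in the deposited table of 55401 Ensembl genes, per the file headers. FPKM values deposited by the authors are scaled by length and library total, and 0.0001 stands for a count of 0 and was read as 0. The counting rule is not given there, nor whether it used strand, so antisense and near-identical genes are uncertain. Per the labels' protocols, 150-base read pairs were made with dUTP in the second strand. Total counts per library lay between 46273129 and 66235443. Counts of 2 to 13 were multiples of 4 in 49% of values, where an even spread gives 25%, and counts of 20 to 59 in 23.3%, so 1 count may not be 1 fragment.

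Counts were fitted with edgeR 4.0.16 (TMM factors, glmQLFit with 4 group means over all 16 libraries, glmQLFTest, two-sided), and p-values were adjusted by Benjamini and Hochberg over all genes tested, with a threshold of 0.05. The interaction was (AAV_A_B - AAV_A) - (AAV_NC_B - AAV_NC). Intervals are at 95%. The statistics were tested on simulated counts. Up to 12 genes per direction were named by smallest unadjusted p among those with a group mean of at least 5 FPKM and an official symbol (clone names did not count as one), with up to 4 members of each described list by smallest p, and the Akr1b family; not all are printed, and some are not reported here. Chordc1, Hsph1 and Serpina3n are shown for their promoter motifs, and genes said to be chosen after their values were seen fall outside the rule. The members and the 37 gene lists were chosen with earlier results of these data known. List scores used log2 CPM with a prior count of 2. Promoters came from RefSeq. No 2 columns were identical (0 pairs), and all columns of samples were used (0 left out). Alternatives were median-of-ratios factors, TMM without mitochondrially encoded genes, other filters (none, 5 FPKM), DESeq2 1.42.0, limma 3.58.1 on log2(FPKM + 1) and log2(FPKM + 0.1), a robust fit, voom weights per library, a term for replicate numbers, and removal of libraries. R 4.3.3 and Python 3.11.15 were used.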

Additional observations from a re-analysis of the deposited data

Results flagged for a closer look

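Of 292 sets of 4 values looked at (73 named genes in 4 groups), 37 (12.7%) held a library that stood apart. Its gap to the nearest other exceeded the 95% critical value of Dixon's test for 4 samples. That value would mark about 1 in 20 sets of independent, normally distributed values. FPKM were used without logs and several genes stood out in the same libraries, so these 2 shares cannot be compared. Most of the 37 fell in 2 libraries. AAV_A library 3 was far above the other AAV_A libraries for Orm2 (1199 FPKM), Saa1 (867 FPKM), Lcn2 (313 FPKM), Saa2 (552 FPKM), Prtn3 (22.1 FPKM), Edem2 (23.4 FPKM), Cxcl14 (6.10 FPKM), S100a9 (155 FPKM) and S100a8 (112 FPKM). AAV_NC_B library 2 was far above its group for Orm2 (750.1 FPKM), Saa1 (1690.5 FPKM), Cyp21a2-ps (42.8 FPKM), Lcn2 (152 FPKM), Saa2 (1522 FPKM), Prtn3 (8.56 FPKM), Cxcl14 (10.1 FPKM), S100a9 (12.02 FPKM), S100a8 (6.61 FPKM) and Serpina3n (442 FPKM), and far below it for Gsta4 (21.4 FPKM) and Bhlhe40 (2.10 FPKM).

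The others were spread over 10 libraries. AAV_A_B library 1 stood low for Exosc5 (2.95 FPKM). AAV_A_B library 2 stood high for Decr1 (65.96 FPKM). AAV_A_B library 3 stood high for Col1a2 (1.005 FPKM) and low for Akr1e1 (5.80 FPKM). AAV_A_B library 4 stood high for Ciart (12.6 FPKM). AAV_A library 2 stood high for Lsm14b (4.004 FPKM), Lpin1 (1.40 FPKM) and Aldh4a1 (50.02 FPKM). AAV_NC_B library 1 stood high for Decr1 (77.7 FPKM) and low for Lpin1 (0.248 FPKM) and mt-Nd1 (9152 FPKM). AAV_NC_B library 3 stood high for Hspa1a (0.747 FPKM). AAV_NC_B library 4 stood low for Derl2 (6.87 FPKM). AAV_NC library 1 stood low for Saa1 (6.29 FPKM). AAV_NC library 4 stood high for Orm2 (12.1 FPKM) and S100a9 (1.17 FPKM).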

How the results depend on the processing

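With all settings but those named here, the number of genes called at an adjusted p under 0.05 stayed at 0 and the number at an unadjusted p under 0.05 stayed within 1.5 times 711. DESeq2 called 10 genes (C1d, Irf5, Rbm12b1, Prtn3, Krt5, Oas1g, B430119L08Rik, Hspa1a, Commd1b and Gm37729). Leaving out AAV_A libraries 3 and 4 together called 1 (AW146154), and leaving out 1 library at a time called 0 to 1 (4632415L05Rik without AAV_A library 1, Tmem254a without AAV_NC_B library 2). The unadjusted count was 1537 without the FPKM filter, 387 at 5 FPKM, 1326 with library weights, 399 without AAV_A library 3 and AAV_NC_B library 2 together (an alternative added after seeing the data), and 463 to 1538 with 1 library left out, the lowest without AAV_NC_B library 2 and the highest without AAV_A library 2. With library weights 732 genes lay above and 594 below 0, against 294 and 417; with log2(FPKM + 0.1) the split was 707 and 150 and the median of all genes 0.18. The count at 5 FPKM comes from 5069 tested genes and that without the filter from 23256; the cause of the other shifts was not tested. The 73 genes looked at under each setting kept their direction in all 2025 values, 3 of which passed the adjusted threshold, all by DESeq2. Most of these genes were named for a small p in the same libraries, so keeping their direction was close to fixed in advance. Of the 711 genes at an unadjusted p under 0.05, at least 710 kept their sign in every setting that tested them all. They too were picked by p in the same libraries, so this was also close to fixed in advance. In those settings, 261 to 705 of them stayed under 0.05 with the same sign. The lowest number was without AAV_A libraries 3 and 4 and the highest in the robust fit. It was 279 without AAV_A library 3 and AAV_NC_B library 2, and 427 by limma on log2(FPKM + 1). Between libraries of the same replicate number, 4 of 24 correlations of deviations exceeded 0.1 (range -0.17 to 0.21), 3 of them in replicate 4. Libraries of unlike number were not compared, so whether the numbers mark pairs cannot be told. A fit with the replicate block called 0 genes, with 672 at an unadjusted p under 0.05. The median 95% half-width of 0.75 log2 units holds counting error and the spread between libraries together, and transcripts at few counts such as Akr1b7 had wide intervals.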

Other observations

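Lists not described above were mostly near 0. Pericentral hepatocyte genes lay above 0 for 14 of 17 tested members (median 0.25), with 2 at an unadjusted p under 0.05, and 11 did so (median 0.15) without AAV_A libraries 3 and 4. Periportal and urea cycle genes lay above 0 for 7 of 18 members (median -0.14), with 2 below 0 at that level, and the sign of this median changed under 2 alternatives. All 4 tested cholangiocyte markers lay below 0 (median -1.22, and -0.79 without AAV_A library 3 and AAV_NC_B library 2), 3 of them at an unadjusted p under 0.05, while Cftr, Krt7 and Muc1 were under 1 FPKM in all libraries.

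Immediate early genes lay above 0 for 13 of 19 members (median 0.39), and their median was -0.38 without AAV_A_B library 3. SREBP control genes lay above 0 for 7 of 10 members (median 0.30) and their median was 0.09 without AAV_NC_B library 2. Above 0 were 24 of 37 nuclear respiratory chain genes (median 0.08), 22 of 32 mitochondrial ribosomal genes (median 0.13), 9 of 38 cytosolic ribosomal genes (median -0.14), 12 of 17 hepatocyte identity genes (median 0.15) and 7 of 22 growth hormone and sex-biased genes (median -0.14). The same held for 4 of 8 AMPK genes (median -0.04), 8 of 15 gluconeogenic genes (median 0.13), 15 of 21 bile acid genes (median 0.13) and 15 of 25 cytochrome P450 genes (median 0.12). It also held for 4 of 10 lymphocyte markers (median -0.14), 7 of 13 sinusoidal endothelial markers (median 0.03), 7 of 18 iron genes (median -0.19) and 4 of 5 cell cycle genes (median 0.03). The medians of these 13 lists each changed sign under at least 1 of 28 alternatives.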
